A study of Mus musculus with 12 samples.

Results

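Genes of the apoptosis machinery were followed in the main olfactory epithelium (MOE), the sheet of nasal tissue that holds the odour-sensing neurons. The members are a list of 35 genes chosen by symbol, and 33 of them had a probe set with that symbol alone, out of 19938 genes so annotated. Bax and Trp53 were not analysed here. All 33 passed the filter on low signal, and none read below log2 5 in any array. By their usual roles, 24 of the 33 promote cell death, 8 favour survival and 1, Trp73, does either depending on the isoform.

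The samples were RNA from whole MOE of H2be-KO and WT mice aged 6 months, 6 arrays per genotype and a pair of mice per array. In H2be-KO mice, a membrane-targeted mCherry reporter (Gap43-mCherry) stands in place of the H2be coding sequence in the germline. H2be encodes a variant of histone H2B that olfactory neurons express. WT mice carry the intact gene. Sex is not labelled array by array, and the study describes its mice of this comparison as male in a legend. The arrays were of both kinds, with 3 per genotype high in the Y-linked gene Eif2s3y (10.54 to 10.72 over both genotypes) and low in Xist, the RNA of the inactive X, and the other 3 high in Xist (11.39 to 11.67) and low in Eif2s3y. Signals were on a log2 scale after normalisation across arrays, so a difference of 1 is a doubling, and each probe set was tested by limma with its p taken before and after adjustment over all 28151 probe sets tested.

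Apoptosis runs along a mitochondrial and a receptor-driven route. In the mitochondrial route, BH3-only proteins sense stress and release Bak1 and related pore formers from the Bcl2-like survival proteins, the outer mitochondrial membrane opens, and cytochrome c and Diablo escape into the cytosol. Cytochrome c assembles with Apaf1 to activate Casp9, while Diablo lifts the block that Xiap and related inhibitor of apoptosis (IAP) proteins place on caspases. In the receptor route, ligands such as Fasl engage Fas and other death receptors, which recruit Fadd and Casp8, and Cflar competes with Casp8 for that platform. Olfactory neurons are lost and replaced throughout life, and the study also measured the life span of these neurons. The comparison here asks whether transcripts of the death machinery differ between H2be-KO and WT tissue. Much of apoptosis is controlled after transcription, by cleavage and release of proteins that an array does not see.

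Of the 33 members, 4 were lower in H2be-KO and 0 higher, taking an unadjusted p under 0.05 in limma as a call. The lower members were Bak1, Trp73, Diablo and Fas, and none of the 8 survival members passed. With the replicate number as a block in the fit, 3 were lower and 2 higher, as Fas was lost and the survival members Birc2 and Cflar were called. Both were read on their brightest probe set. The lower calls were 12.1% of the members, against 1.77% of all probe sets tested, and the higher calls were 0% against 3.78%. Calls in either direction made up 5.55% of all probe sets. After adjustment in limma, no member was under 0.05 (smallest adjusted p = 0.753), and neither was any probe set of the array (0%). The exact permutation test called the same 4 members lower and 0 higher, against calls in either direction for 6.01% of all probe sets. The median difference was 0.04 over the members and 0.02 over all probe sets tested. Differences were positive for 19 members (57.6%) and negative for 14, against 56.2% positive over all probe sets.

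The stretch of 250 bases before the transcription start of each lower gene is shown so that the control regions of the members that fell can be set side by side (RefSeq, GRCm38.p6, each read 5′ to 3′ along the gene). Of the 33 members, 30 had such a stretch in the table, and Trp73 has a pair of starts. Capitals mark matches, on either strand, to any of 4 short motifs, and no match overlapped another. The GC box was searched as GGGCGG. The letters of the motif known as the CCAAT box are its name. For the TATA box the search used TATAAA. An E-box was taken as CACGTG.
Bak1 (chr17:27028628-27028877, minus strand): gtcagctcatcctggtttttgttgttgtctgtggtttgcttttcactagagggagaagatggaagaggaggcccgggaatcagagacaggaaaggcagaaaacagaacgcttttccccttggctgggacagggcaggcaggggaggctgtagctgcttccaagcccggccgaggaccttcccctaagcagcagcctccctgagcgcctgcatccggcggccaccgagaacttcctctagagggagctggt
Diablo (chr5:123524165-123524414, minus strand): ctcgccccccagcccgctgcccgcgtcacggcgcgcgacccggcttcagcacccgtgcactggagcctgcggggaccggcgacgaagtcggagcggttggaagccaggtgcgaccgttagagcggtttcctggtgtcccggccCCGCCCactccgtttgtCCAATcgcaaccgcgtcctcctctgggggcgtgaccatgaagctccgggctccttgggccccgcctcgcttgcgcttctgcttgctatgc
Fas (chr19:34290409-34290658, plus strand): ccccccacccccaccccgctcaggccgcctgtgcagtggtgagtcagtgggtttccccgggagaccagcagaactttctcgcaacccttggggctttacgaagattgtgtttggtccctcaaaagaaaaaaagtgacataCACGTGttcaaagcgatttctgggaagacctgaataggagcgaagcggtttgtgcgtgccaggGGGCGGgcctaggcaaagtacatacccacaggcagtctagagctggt
Trp73, upstream start (chr4:154139876-154140125, minus strand): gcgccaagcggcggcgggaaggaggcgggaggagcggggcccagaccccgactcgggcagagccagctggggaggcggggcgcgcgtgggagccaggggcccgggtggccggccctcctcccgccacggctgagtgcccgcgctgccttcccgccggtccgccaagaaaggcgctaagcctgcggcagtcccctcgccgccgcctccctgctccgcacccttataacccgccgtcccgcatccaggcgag
Trp73, internal start (chr4:154097174-154097423, minus strand): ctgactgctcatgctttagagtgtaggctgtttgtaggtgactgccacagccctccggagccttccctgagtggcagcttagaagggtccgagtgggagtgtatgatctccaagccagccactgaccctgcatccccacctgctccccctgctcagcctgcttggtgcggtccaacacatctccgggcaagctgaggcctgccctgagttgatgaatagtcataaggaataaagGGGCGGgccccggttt

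The 5 stretches shared no arrangement of these motifs. Bak1 and the upstream start of Trp73 held none of the 4, while Diablo held 1 GC box and 1 CCAAT match, Fas 1 GC box and 1 E-box, and the internal start of Trp73 1 GC box. Among 32851 stretches of the same length in the table, 32.7% held a GC box, 33.8% a CCAAT match, 12.4% a TATA box and 6.02% an E-box. The number of CpG dinucleotides was 31 before the upstream start of Trp73 and 30 before Diablo, and 8 for Bak1, 11 for Fas and 6 for the internal start of Trp73, against a median of 6. Which parts of these genes the probes cover was not analysed here.

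The pore former Bak1, which opens the outer mitochondrial membrane, had the smallest limma p of the members. Its signal ranged from 6.63 to 6.88 in H2be-KO (median 6.77) and from 6.81 to 7.29 in WT (median 6.98). Every H2be-KO array lay below the WT median, and 3 of them lay under the lowest WT array. Bak1 fell by 0.27 log2 units, from a WT mean of 7.03 ± 0.19 to 6.76 ± 0.10 (± SD, n = 6 each, exact permutation p = 0.0152), which is 1.21-fold lower with a standard error of 0.10. The limma call held with each array left out in turn, but ended without both H2be-KO replicates 1 and 6, which had a high signal of the enamel gene Amelx. The difference was then -0.22 at a limma p of 0.0747. Bok, a relative of Bak1 that can act without BH3-only input, ranged from 8.64 to 9.37 in H2be-KO (median 8.95) and from 9.01 to 9.23 in WT (median 9.06). Its difference of -0.12 did not pass (exact permutation p = 0.294), although 4 H2be-KO arrays read under all WT arrays, and 1 read above them all. Without that array, H2be-KO replicate 4, the limma p was 0.0416.

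**Figure D1:**
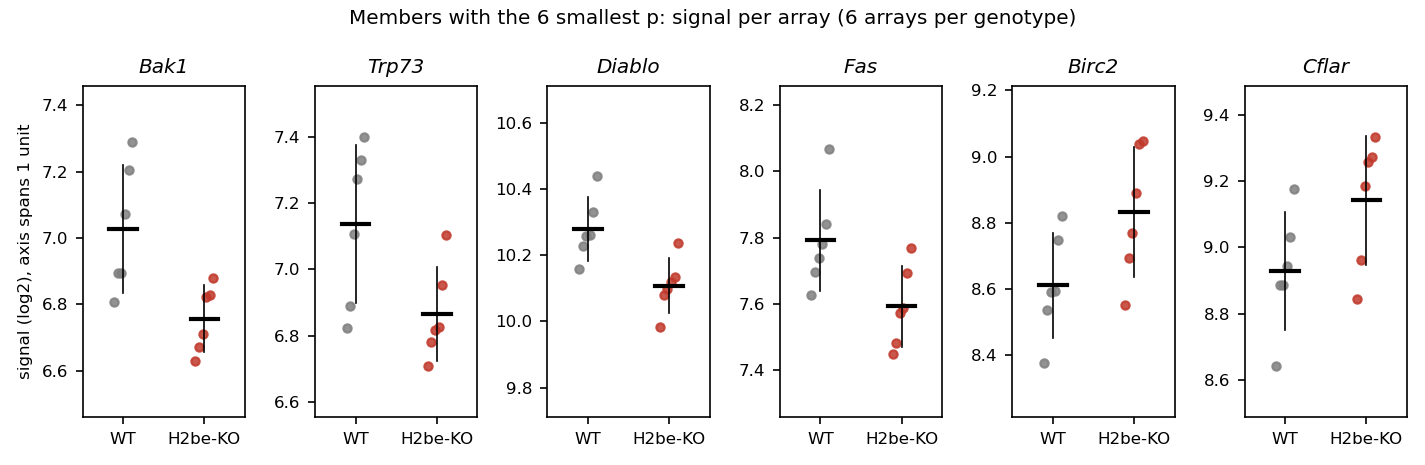
Signal (log2) of the 6 members with the smallest p in each array, WT in grey and H2be-KO in red; thick bars are means and thin lines 1 SD either way, 6 arrays per genotype; every vertical axis spans 1 log2 unit. Bak1, Trp73, Diablo and Fas were lower in H2be-KO with some overlap of the arrays, while Birc2 and Cflar had higher means that missed the threshold. Cflar is shown on its brightest probe set, whose locus was not analysed.

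Diablo (also called Smac) binds IAP proteins once it leaves the mitochondrion. It ranged from 9.98 to 10.24 in H2be-KO (median 10.11) and from 10.16 to 10.44 in WT (median 10.26), with 5 H2be-KO arrays under the lowest WT array. Diablo fell by 0.17, from 10.28 ± 0.10 to 10.11 ± 0.08 (n = 6 each, exact permutation p = 0.0065), or 1.13-fold. Its spread within genotypes was narrow, with a pooled SD of 0.089, the smallest of the members. The limma call, at a p of 0.0370, ended in turn without H2be-KO replicate 2, 3, 5 or 6 or without WT replicate 1, 3 or 6, at p from 0.0507 to 0.0857.

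The other mitochondrial proteins did not pass. Cycs, which encodes cytochrome c, read 10.46 to 11.13 in H2be-KO (median 10.93) and 10.57 to 10.94 in WT (median 10.71) on its brightest probe set. The difference was 0.16 with a 95% interval of -0.08 to 0.40 (exact permutation p = 0.188), and without H2be-KO replicate 4, the lowest array, the limma p was 0.0249. The other Cycs probe sets differed by 0.22 and 0.10, and near-identical processed copies of this gene make its signal uncertain. Only the dimmest, at a mean of 6.25, is numbered among members on chromosome 6, where Cycs lies. Its difference was the 0.10 (exact permutation p = 0.710). The brightest is numbered between Hrk and Diablo, on chromosome 5, and where the probe sets lie was not analysed here. Endog, a nuclease released alongside cytochrome c, ranged from 7.21 to 8.03 in H2be-KO (median 7.71) and from 7.57 to 8.02 in WT (median 7.91), a difference of -0.17 (exact permutation p = 0.225). Apaf1, the scaffold of the apoptosome, differed by 0.04 (95% interval -0.19 to 0.27). Aifm1, which supports the respiratory chain in healthy cells and promotes the breakdown of chromatin after release, differed by 0.09 (95% interval -0.11 to 0.28).

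Fas, the receptor for Fas ligand, ranged from 7.45 to 7.77 in H2be-KO (median 7.58) and from 7.63 to 8.07 in WT (median 7.76). The highest array of all was WT replicate 4, and 4 H2be-KO arrays read under all WT arrays. Fas fell by 0.20, from 7.79 ± 0.15 to 7.59 ± 0.12 (n = 6 each, exact permutation p = 0.0238), or 1.15-fold. The limma call, at a p of 0.0423, was the nearest to the threshold of the 4. It ended in turn without H2be-KO replicate 3, 4, 5 or 6 or WT replicate 1, 3, 4 or 5, with p reaching 0.0935. With all arrays kept, it ended with the replicate block (limma p of 0.0610) and with trend and robust moderation (0.0765). Its ligand gene Fasl differed by -0.02 (95% interval -0.28 to 0.23), at 5.88 to 6.46 in H2be-KO and 5.93 to 6.53 in WT, so the arrays overlapped almost entirely.

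The other genes of the receptor route did not pass. Tnfrsf10b, the mouse receptor for the death ligand TRAIL, ranged from 5.98 to 6.51 in H2be-KO (median 6.22) and from 5.72 to 6.53 in WT (median 6.07). Its difference of 0.18 (exact permutation p = 0.188) turned into a limma call without WT replicate 4 (p = 0.0253). Fadd, the adaptor between death receptors and Casp8, read 0.13 higher on average (exact permutation p = 0.216). All 6 H2be-KO arrays lay above the WT median, and the limma p was 0.0235 without WT replicate 6, the highest array. Tnfrsf1a, a receptor for tumour necrosis factor, differed by 0.09 (95% interval -0.11 to 0.28). Cflar, which holds back Casp8 at the receptor, ranged from 8.85 to 9.33 in H2be-KO (median 9.22) and from 8.64 to 9.18 in WT (median 8.92), and 4 H2be-KO arrays lay above every WT array. The Cflar difference on its brightest probe set was 0.21 (n = 6 each, exact permutation p = 0.0866), with a 95% interval of -0.02 to 0.44. Its other probe sets differed by 0.20 and 0.10 (exact permutation p of 0.115 and 0.307). Which of the probe sets lie at the Cflar locus was not analysed here, and the alternatives below used the brightest. By its number on the array, the brightest stands closest to Casp6 among the other members, a gene on chromosome 3. The other Cflar probe sets are numbered closest to Casp8 on chromosome 1, where Cflar lies. Cflar was called by limma without H2be-KO replicate 1 or 4 or WT replicate 6, at p from 0.0193 to 0.0436, and with all arrays kept under the replicate block (0.0174), the residual component (0.0305), array weights (0.0110) and trend and robust moderation (0.0414).

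Trp73 encodes p73, a relative of p53 whose full-length isoforms induce death genes and whose short isoforms oppose them, and which is also needed for multiciliated cells. It ranged from 6.71 to 7.10 in H2be-KO (median 6.82) and from 6.82 to 7.40 in WT (median 7.19). Of the WT arrays, 4 lay above every H2be-KO array and 2 lay among them. The lowest of the 4, WT replicate 3, was nearly level with H2be-KO replicate 1 (7.1064 against 7.1048). Trp73 fell by 0.27, from 7.14 ± 0.24 to 6.87 ± 0.14 (n = 6 each, exact permutation p = 0.0411), or 1.21-fold, and isoforms were not told apart by its single probe set. The limma call, at a p of 0.0277, ended in turn without H2be-KO replicate 3 or 4 or WT replicate 2, 4 or 5, at p from 0.0522 to 0.0646. With all arrays kept, array weights also ended it (-0.23 at a limma p of 0.0508).

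Within the arrays of each sex-linked kind, 3 per genotype, a split made after the data were seen, the 4 lower genes had negative differences of unequal size, given without a test. Bak1 differed by -0.31 among the arrays high in Eif2s3y and by -0.23 among those high in Xist. Trp73 differed by -0.40 and -0.14, and Diablo by -0.24 and -0.10. Fas differed by -0.34 and -0.06, and WT replicate 4, its highest array at 8.07, was among those high in Eif2s3y. The arrays high in Eif2s3y were replicates 4, 5 and 6 of each genotype. Sex therefore cannot be told apart from anything else that these numbers share. Whether the differences depend on sex was not tested.

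Whole tissue was measured, so fewer cells of a type and less RNA per cell cannot be told apart for any of these genes. Among lists of marker genes for the cell types of the tissue, that of horizontal basal cells, which rebuild the epithelium after injury, had a lower mean in H2be-KO. Its mean ranged from 7.91 to 8.49 in H2be-KO (SD 0.23) and from 7.89 to 8.84 in WT (SD 0.34), a difference of -0.18. Of its 7 genes, 1 was lower (Itgb4) and 0 higher, and Krt15, with the widest spread, differed by -0.45 (pooled SD 0.96). Neuronal progenitor genes had a mean difference of 0.14, at 8.24 to 8.55 against 8.10 to 8.48, with 2 of 9 higher (Gadd45g and Top2a). Multiciliated cell genes, listed after the values of Trp73 were seen, read 9.55 to 9.74 in H2be-KO and 9.66 to 9.80 in WT, a difference of -0.05 with 0 of 8 called. Mature neuron genes, which define the tissue, were bright and close to equal at 11.47 to 11.75 and 11.58 to 11.67, with 0 of 13 called. T and NK cell genes differed by -0.07 with 1 of 10 lower (Prf1). Tooth genes had the largest difference of the lists, 0.74 (SD 1.45 in H2be-KO and 0.33 in WT), with 0 of 3 called. Immature neuron genes had a mean difference of 0.04, with 1 of 10 higher (Gap43, by 0.25). Ensheathing glia genes had a mean difference of 0.07, with 1 of 5 higher (Fabp7, by 0.22). Both lists also held negative differences, such as -0.11 for Ncam1 and -0.17 for Sox10. So did that of neuronal progenitors, such as -0.06 for Neurog1. The list of T and NK cells also held positive differences, such as 0.19 for Gzmb. The reporter of the H2be-KO allele carries a short part of the Gap43 coding sequence, and whether the Gap43 probes read it was not analysed here. Over all probe sets tested, 3.78% were called higher and 1.77% lower. The part of these cell types in the differences of the members was not tested.

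**Figure D2:**
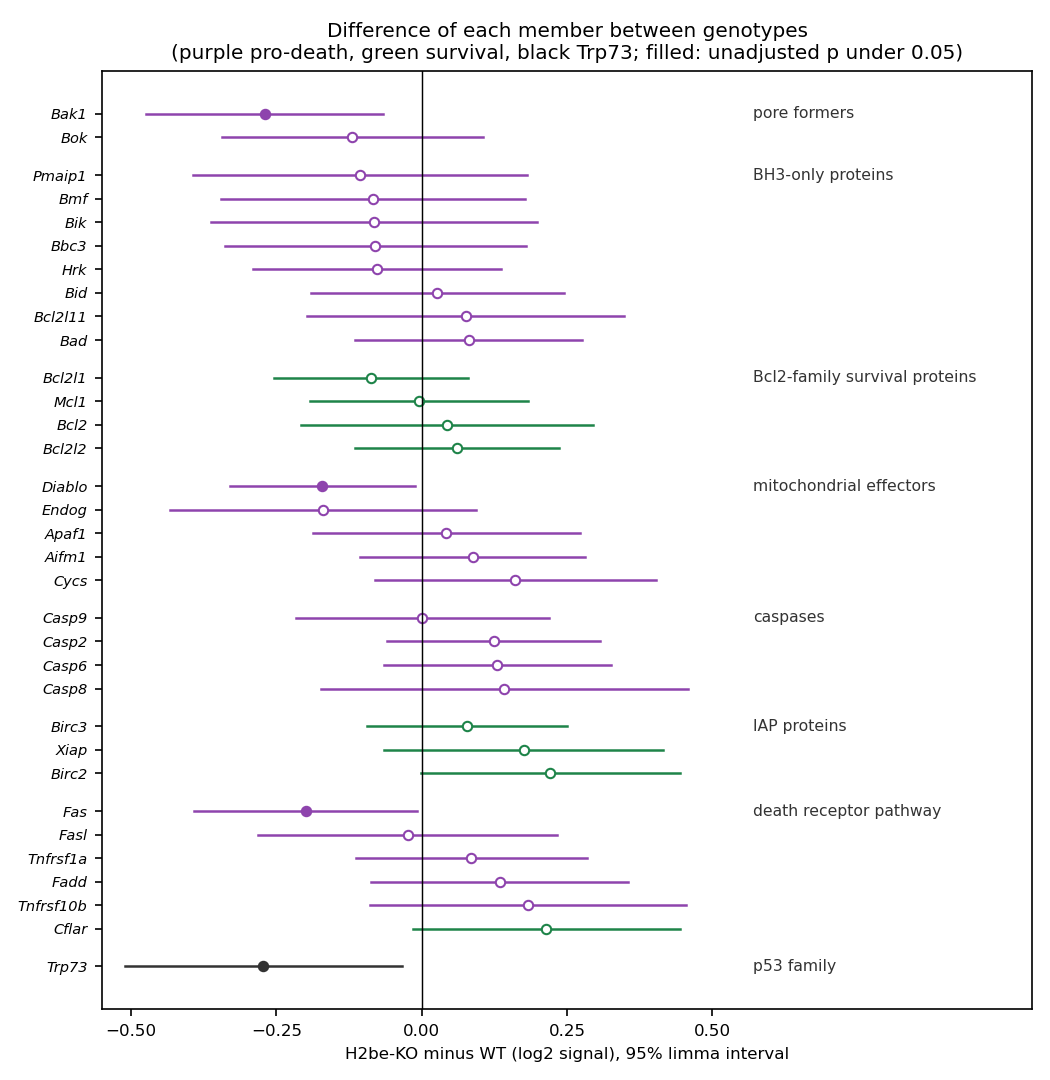
Difference between H2be-KO and WT (log2 signal) of the 33 members, grouped by role, as a point with its 95% limma interval; purple marks pro-death, green survival and black Trp73, and filled points had an unadjusted p under 0.05. The 4 filled points lie to the left of 0, and the intervals of the other 29 members include 0.

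The 3 IAP genes among the members, whose proteins bind and restrain caspases, all had positive differences, and none passed. Of related genes outside the members, Birc5, Birc6 and Birc7 differed by -0.28, -0.0045 and -0.25. Naip2, Naip5 and Naip6 differed by 0.04, 0.23 and 0.02, and none of these was called. Birc2 ranged from 8.55 to 9.05 in H2be-KO (median 8.83) and from 8.38 to 8.82 in WT (median 8.59), and 3 H2be-KO arrays lay above every WT array. The means were 8.83 ± 0.20 and 8.61 ± 0.16 (n = 6 each), a difference of 0.22 (exact permutation p = 0.0606) with a 95% interval of -0.0016 to 0.44. It crossed the limma threshold without H2be-KO replicate 2 or 4 or WT replicate 1 or 6, at p from 0.0159 to 0.0435. With all arrays kept, it was also called with the filter at log2 6 (limma p of 0.0489), the replicate block (0.0308), the first residual component in the fit (0.0296), array weights (0.0257) and trend and robust moderation (0.0385). A second Birc2 probe set differed by 0.13. Xiap, the strongest direct inhibitor of caspases in the family, ranged from 9.42 to 9.85 in H2be-KO (median 9.68) and from 9.14 to 9.83 in WT (median 9.49), a difference of 0.18 (exact permutation p = 0.158). Without WT replicate 6, the highest WT array, its limma p was 0.0306. Birc3, a close relative of Birc2, read 7.55 to 7.96 in H2be-KO and 7.57 to 7.68 in WT, a difference of 0.08 (95% interval -0.09 to 0.25).

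The caspases among the members, proteases that carry out the death programme, also had positive differences in 4 of 4 genes, and none passed. Outside the members, Casp1 and Casp4 differed by -0.19 and -0.01 and Casp12 by 0.04, none of them called. Casp6, an executioner, read 9.75 to 10.05 in H2be-KO (median 9.95) and 9.54 to 9.98 in WT (median 9.76), a difference of 0.13 (exact permutation p = 0.128). Casp2, an initiator linked to DNA damage, read 8.68 to 8.88 (median 8.75) against 8.44 to 8.85 (median 8.64). All 6 H2be-KO arrays of Casp2 lay above the WT median, and the difference was 0.12 (exact permutation p = 0.128). Casp8, the initiator at death receptors, had the widest spread of the members, with a pooled SD of 0.28, and differed by 0.14 (95% interval -0.17 to 0.46). Casp9, the initiator on the apoptosome, differed by 0.00088 (95% interval -0.22 to 0.22).

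The BH3-only genes, which start the mitochondrial route, differed little. Of the 8, 0 were called, 3 had a positive and 5 a negative difference, and the differences ran from -0.11 to 0.08. Bad, which growth factor signalling keeps inactive, had the smallest p of the group, at 8.05 to 8.39 in H2be-KO (median 8.17) and 7.87 to 8.36 in WT (median 8.15), a difference of 0.08 (exact permutation p = 0.353). Pmaip1 (Noxa) read 6.63 to 7.40 in H2be-KO (median 6.87) and 6.92 to 7.36 in WT (median 7.05), a difference of -0.11 (exact permutation p = 0.472). For Pmaip1, 4 H2be-KO arrays lay under the lowest WT array and 1 above the highest. Bbc3 (Puma), like Pmaip1 a target of p53, differed by -0.08 (95% interval -0.34 to 0.18), and Bmf, linked to detachment of cells, by -0.08 (95% interval -0.35 to 0.18). Bik differed by -0.08, as did Hrk, a member restricted largely to neurons (95% interval -0.29 to 0.14). Bcl2l11 (Bim), which drives the death of neurons deprived of trophic factors, differed by 0.08 (95% interval -0.20 to 0.35), and Bid, which Casp8 cleaves to link the routes, by 0.03 (95% interval -0.19 to 0.24). None of these intervals reached 0.40 in either direction.

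The Bcl2-like survival genes had differences from -0.09 to 0.06, and 0 of 4 passed. Bcl2l1 (Bcl-xL), the chief survival member in mature neurons, read 9.88 to 10.11 in H2be-KO (median 10.05) and 9.98 to 10.25 in WT (median 10.10), a difference of -0.09 (exact permutation p = 0.175). Mcl1, a short-lived protein set largely by synthesis and turnover, read 9.98 to 10.28 and 9.95 to 10.41, a difference of -0.0048 (95% interval -0.19 to 0.18). Bcl2 itself differed by 0.04 (95% interval -0.21 to 0.30) and Bcl2l2 (Bcl-w) by 0.06 (95% interval -0.11 to 0.24).

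Set against each other, the pro-death and survival members gave a balance for each array, the mean of the 24 pro-death members less the mean of the 8 survival members. It is described without a test, and its level has no meaning of its own, since signals of different probe sets are not on a common scale. The balance ranged from -1.20 to -0.92 in H2be-KO (median -1.14) and from -1.10 to -0.87 in WT (median -1.01). It averaged -1.09 ± 0.13 over the H2be-KO arrays and -0.99 ± 0.08 over the WT arrays (6 arrays each), a difference of -0.09, which is smaller than the SD of the former group and larger than that of the latter. Most of that difference lay in the survival members, which averaged 9.17 ± 0.10 and 9.08 ± 0.09, while the mean of the pro-death members was 8.09 in both genotypes (SD 0.04 and 0.03). The mean of all probe sets tested was itself 0.02 higher in H2be-KO. Less that mean in each array, the survival members differed by 0.06 and the pro-death members by -0.03. With the median over members in place of the mean, the balance differed by -0.22.

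**Figure D3:**
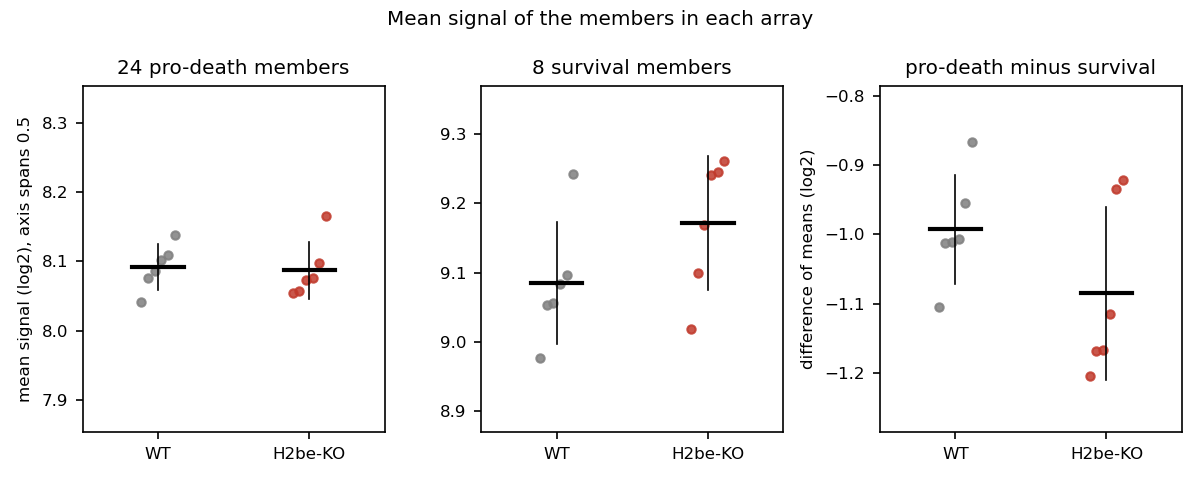
Mean log2 signal of the 24 pro-death members, of the 8 survival members and the difference of these means in each array, WT in grey and H2be-KO in red; thick bars are means and thin lines 1 SD either way; every vertical axis spans 0.5. The arrays of the genotypes overlap in all panels, and the balance is -1.09 on average in H2be-KO and -0.99 in WT.

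Relative to each gene's mean, the average deviation over the 33 members lay between -0.044 in WT replicate 2 and 0.059 in WT replicate 6. WT replicate 6 was the highest array for 6 members, and WT replicate 4 was the lowest for 7 and the highest for 4. In WT replicate 4, Bak1, Trp73 and Fas were at their highest while Birc2, Cflar and Xiap were at their lowest. With that array left out, Trp73 and Fas were no longer called, at differences of -0.22 and -0.14 and limma p of 0.0646 and 0.0887, and the balance differed by -0.067. Bak1 and Diablo stayed called without it. The spread within genotypes was 0.18 for the median member (pooled SD), against a residual SD of 0.20 for the median probe set tested. The median standard error of a member's difference was 0.10.

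**Figure D4:**
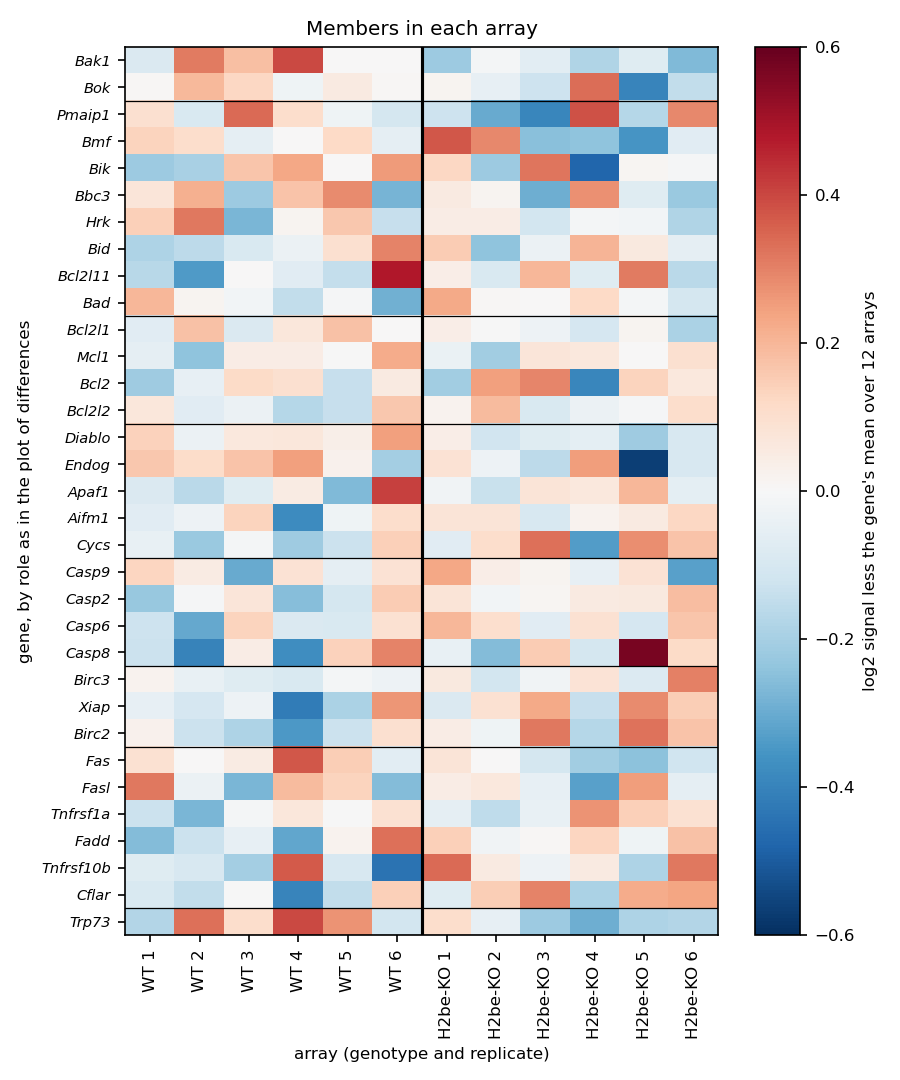
Log2 signal of the 33 members in the 12 arrays less each gene's mean over all arrays, red above and blue below that mean, with genes ordered by role and the black vertical line between WT and H2be-KO. Deviations run from -0.56 (Endog in H2be-KO replicate 5) to 0.57 (Casp8 in H2be-KO replicate 5).

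Further genes of the pathway were followed from a list. Of 43 other apoptosis genes with a probe set, 0 were higher and 1 lower at an unadjusted limma p under 0.05. Over all probe sets tested, 3.78% were higher and 1.77% lower. A positive difference was found for 26 of the genes (60.5%), against 56.2% of all probe sets. The lower gene was Bcl2l10, a Bcl2 relative best known from oocytes, at a dim 5.60 to 6.10 in H2be-KO (median 5.93) and 5.87 to 6.34 in WT (median 6.18). Its difference was -0.26, which limma called and the exact permutation test did not (exact p = 0.0519). With single arrays left out, between 0 and 5 genes of the list were lower. Birc5 (survivin), an IAP-related gene of dividing cells, averaged 7.15 ± 0.11 in H2be-KO, against 7.43 ± 0.34 in WT. It was not called (exact permutation p = 0.0887) and was chosen after its values were seen.

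Genes that p53 is known to induce were also followed, since several members are its targets. Of 19 such genes outside the members, 1 was higher and 0 lower, against 3.78% and 1.77% of all probe sets tested. Mdm2, both a target and the main antagonist of p53, ranged from 9.07 to 9.31 in H2be-KO (median 9.27) and from 8.86 to 9.26 in WT (median 9.01), and every H2be-KO array lay above the WT median. It rose by 0.18 (1.13-fold, exact permutation p = 0.0281, limma p = 0.0491), and the number of higher calls among these genes was 0 after quantile normalisation and after median centring of the arrays. The list as a whole had a median difference of 0.0064.

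The H2be probe set, annotated as H2bc21, checks the genotype only in part, because the position of its probes relative to the replaced coding sequence was not analysed here. It ranged from 11.51 to 11.84 in H2be-KO and from 11.63 to 12.12 in WT, with 3 H2be-KO arrays under all WT arrays (exact permutation p = 0.0195). Arrays correlated with each other at 0.951 to 0.985 and their median signals lay between 7.84 and 7.90. Without both H2be-KO arrays of high Amelx signal, Trp73, Diablo and Fas stayed called, with differences of -0.32, -0.20 and -0.24 at limma p of 0.0252, 0.0436 and 0.0401.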

How the data were processed

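Whole MOE RNA was hybridised to Mouse Gene 1.0 ST arrays (Affymetrix). Outlier arrays were screened by the authors with arrayQualityMetrics, and probes were summarised by IterPLIER with sketch-quantile normalisation in Expression Console. The deposited values are log2 signals after that normalisation, which would largely have removed a change shared by most transcripts. A median difference of 0.02 over all probe sets tested remained. Versions of these tools and the annotation build are not given in the sources used here. Arrays carry no depth, and precision is limited by how many there are.

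Sample titles gave the groups. Of the 35556 probe sets, 6612 controls were left out, and those with a mean log2 signal above 5 were fitted (28151) by genotype in limma 3.58.1 (R 4.3.3), with Benjamini-Hochberg adjustment over all of them. Exact permutation p-values are two-sided over all 924 choices of 6 of 12 arrays. Symbols followed the platform annotation. The brightest probe set stands for a gene. Of the 50 other apoptosis genes and 20 p53 targets listed, 43 and 19 had a probe set with that symbol alone.

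The members and lists were chosen with earlier results of these data known. The text names all members, with ranges for those with an unadjusted p under 0.05, then by smallest p to 12, and for each role. The model and the permutation test were tested on simulated data. The labels do not say whether arrays come from separate litters or days, so p-values measure the spread between these samples. Alternatives covered the filter, a floor, normalisation, the replicate block, covariates, weights, moderation, averaging by symbol, the exact test and arrays left out. Within-kind differences by Eif2s3y and Xist were added after the data were seen.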

Additional observations from a re-analysis of the deposited data

How the results depend on the processing

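The count of members past the adjusted threshold was 0 under each of 25 alternatives, and that of lower members was 3 or 4 with all arrays kept or both high-Amelx arrays left out and 1 to 4 with single arrays left out, at its lowest without H2be-KO replicate 3. Higher members numbered 0 in the fit reported, 1 with the filter at log2 6, 2 with the replicate block, 2 when the first residual component was fitted, 2 with trend and robust moderation, 5 with array weights, and 0 to 4 with single arrays left out. Other apoptosis genes were lower in 3 cases after quantile normalisation, 2 after median centring, 2 with the replicate block, 4 with the residual component, 6 with array weights, 0 by the exact permutation test, 0 without both H2be-KO arrays of high Amelx and 0 to 5 with single arrays left out. They were higher in 4 cases with array weights and in 0 to 1 with single arrays left out. Of the p53 targets, 0 were higher with the floor at log2 5, after quantile normalisation, after median centring, with Y-linked signal as a covariate or without both high-Amelx arrays, 2 with array weights, and 0 to 3 with single arrays left out. The number lower was 1 with the replicate block and 0 to 1 with single arrays left out. The balance was -0.22 with the median over members and -0.12 to -0.067 with single arrays left out.

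Of 792 differences of single members under the alternatives, 715 kept their direction and their side of the threshold, and 29 turned sign, in 8 genes, 0 of them on a called difference. Casp9 read -0.027 after quantile normalisation, -0.013 after median centring and -0.032 with array weights, which also gave -0.024 for Bad, 0.035 for Bik and 0.033 for Mcl1. With single arrays left out, Casp9 lay between -0.059 and 0.066, Bid between -0.011 and 0.088, Bik between -0.15 and 0.0049, Apaf1 between -0.0066 and 0.13, Fasl between -0.082 and 0.038, Bcl2 between -0.011 and 0.13 and Mcl1 between -0.053 and 0.039. The cause of these changes was not tested.

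Array numbers were not treated as pairs, since the labels do not say that a number marks shared mice or a shared day, and the correlation of same-numbered arrays' deviations was over 0.1 for 4 of 6 numbers rather than for all. The correlations were all positive (0.025 to 0.59) and 4 of 6 H2be-KO arrays correlated best with their own number, a hint of pairing from the data. Numbers also share the sex-linked kind. With the replicate block 3 members were lower and 2 higher, Fas was not called, at a limma p of 0.0610, and Birc2 and Cflar were. Array weights also called Xiap, Cycs (on its brightest probe set) and Casp2 higher and ended the call of Trp73. Signals near log2 5 lie near background, which limits dim members such as Tnfrsf10b and Fasl.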
